A study of Drosophila melanogaster with 2 samples.

Results

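Of the 5703 summits in the list of reproducible peaks, 698 (12.2%, 95% Wilson interval 11.4 to 13.1) were intergenic: each lay more than 500 bp from every annotated start site and outside every annotated gene body. The rule used position alone, with the Ensembl annotation without transposable elements. The list, on build dm6, is the one thresholded by irreproducible discovery rate (IDR), a measure of how far replicates share a peak. The remainder comprised 2930 summits within 500 bp of a start site and 2075 in gene bodies. The data came from chromatin immunoprecipitation with sequencing (ChIP-seq) on whole Drosophila melanogaster prepupae of pooled sexes and unknown age, carrying a transgene that stably expresses the product of CG6854 with GFP at its C terminus. An anti-GFP antibody was used on sonicated chromatin, and the labels name CTPsyn as the target. The 2 libraries were biological replicates 2 and 3 of 1 group, so no test between groups was possible and all comparisons are descriptions with the value in each replicate. Control libraries were not analysed here, and which of these summits an untagged line would give was not tested.

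CTP synthase makes CTP, a building block of nucleic acids and phospholipids, and is known in Drosophila for assembling into cytoplasmic filaments; it is not known as a sequence-specific DNA-binding protein. CG6854 is an older name of both its gene, Ctps, and the overlapping CG45071. Intergenic sequence of the fly holds enhancers, silencers, insulators and unannotated promoters, and long gaps are typical of genes for developmental regulators. In the prepupa the steroid hormone ecdysone drives the start of metamorphosis, when larval tissues die and imaginal discs form the adult body.

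The DNA under the strongest intergenic summits is shown first because these are the places with the highest signal value, the score that the authors gave each peak. The windows cover the summit and 50 bp on either side, on the plus strand of dm6, read from the RefSeq genome. They belong to 6 of the 7 members with a signal above 1000, in order of signal, and capitals mark AAAAAAAA or its reverse complement.
Rilpl to futsch, X:1399288-1399388: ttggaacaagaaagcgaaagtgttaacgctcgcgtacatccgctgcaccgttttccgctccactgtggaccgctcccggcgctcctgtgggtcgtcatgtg
lncRNA:CR45424 to CG43389, 3L:3246465-3246565: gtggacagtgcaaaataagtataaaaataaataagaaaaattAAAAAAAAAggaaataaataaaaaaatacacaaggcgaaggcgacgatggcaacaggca
Sol1 to Cyp9f2, 3R:12403101-12403201: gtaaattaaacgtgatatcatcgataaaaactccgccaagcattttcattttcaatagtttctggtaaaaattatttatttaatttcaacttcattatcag
Hacd1 to Rh5, 2L:12003462-12003562: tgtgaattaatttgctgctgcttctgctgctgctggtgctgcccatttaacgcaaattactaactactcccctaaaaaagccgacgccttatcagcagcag
COX7AL2 to CG31668, 2L:2202348-2202448: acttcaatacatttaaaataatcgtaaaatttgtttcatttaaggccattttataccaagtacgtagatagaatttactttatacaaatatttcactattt
lncRNA:CR44718 to lncRNA:CR44714, 3L:11246203-11246303: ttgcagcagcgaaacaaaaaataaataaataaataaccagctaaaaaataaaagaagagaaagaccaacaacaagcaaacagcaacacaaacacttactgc
The first window, in the gap between Rilpl and futsch, was 58.4% G or C, against a median of 41.1% over all members. The window between Sol1 and Cyp9f2 had 25.7% and that between COX7AL2 and CG31668 had 21.8%. High signal was thus found at both GC-rich and AT-rich sequence. The window beside Hacd1 holds several CTG repeats; CTGCTGCTG, counted after this window had been seen, was present in 11 members (1.58%) and in 0.788% of windows beside the summits.

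The next windows are from 4 of the 6 strongest members with GAGAGAG or its reverse complement CTCTCTC, in capitals. This repeat is the binding sequence of GAGA factor (Trl) and CLAMP. Among motifs found in at least 20 members, its share at the summits stood highest above that in the sequence beside them. The summits beside croc and CG43389 had no match within 100 bp in replicate 2. The latter lay 203 bp from the summit of the second window above.
croc to Neu2, 3L:21479837-21479937: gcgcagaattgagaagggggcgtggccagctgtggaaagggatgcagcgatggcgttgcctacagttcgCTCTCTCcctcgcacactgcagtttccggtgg
dsx to CD98hc, 3R:7968035-7968135: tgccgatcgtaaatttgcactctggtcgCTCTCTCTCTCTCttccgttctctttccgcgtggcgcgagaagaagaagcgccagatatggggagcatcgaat
lncRNA:CR44526 to SrpRbeta, 3L:8702638-8702738: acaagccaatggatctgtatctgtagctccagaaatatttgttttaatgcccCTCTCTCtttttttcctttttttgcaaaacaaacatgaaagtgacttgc
lncRNA:CR45424 to CG43389, 3L:3246668-3246768: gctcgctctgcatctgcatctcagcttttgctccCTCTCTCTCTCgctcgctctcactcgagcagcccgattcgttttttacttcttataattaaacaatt
The motif that came next among those found in at least 20 members was CAGCTG, an E box read by basic helix-loop-helix proteins. Of the 3 strongest members with it, the window between croc and Neu2 is printed above, where it is not in capitals, and the other two follow.
lncRNA:CR45585 to lncRNA:CR46352, 3R:5021663-5021763: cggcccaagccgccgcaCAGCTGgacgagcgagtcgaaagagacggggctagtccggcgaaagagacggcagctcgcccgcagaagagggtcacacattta
glec to lncRNA:CR45644, 3R:21859742-21859842: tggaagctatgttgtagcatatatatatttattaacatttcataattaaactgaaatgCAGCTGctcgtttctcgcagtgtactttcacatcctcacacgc

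Signal at the intergenic summits was close to that of the other summits. The median was 196.1 (quartiles 161.7 and 270.6, range 136.4 to 2406), against 204.9 at promoter summits, 194.0 in gene bodies and 200.1 over the whole list. The intergenic share of summits was 10.2% among the 570 strongest and 12.8% among the 570 weakest, and it lay between 9.98% and 14.0% in all 10 equal slices of the list, with no steady trend. Members with a signal above 1000 numbered 7 (1.00%), and 36 of the 2930 promoter summits (1.23%) passed the same mark. The median region was 430 bp wide, and 366 of the 698 regions had exactly this width. Intergenic binding was therefore neither a weak tail of the list nor its strongest part.

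Most members were found in both libraries, which follows in part from the list, since it keeps peaks that the replicates share. A summit of the relaxed list lay within 100 bp of 655 members (93.8%) in replicate 2 and of 669 (95.8%) in replicate 3. The shares were 95.3% and 95.6% at promoter summits, and 96.0% and 96.5% in gene bodies, so the classes were alike. Of the members, 626 (89.7%) were matched in both. The median replicate signal was 98.8 in replicate 2 (range 22.7 to 1414) and 109.2 in replicate 3 (22.3 to 989.5). Replicate 3 gave the higher value at 401 of the 626 (64.1%), with a median ratio of 1.20 and a range from 0.219 to 6.26. Across these 626 summits Spearman's rho was 0.480, a description over regions that share both libraries. Of all members, 425 (60.9%) were among the 5703 strongest summits of both replicates, compared with 62.8% of all summits in the list.

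**Figure D1:**
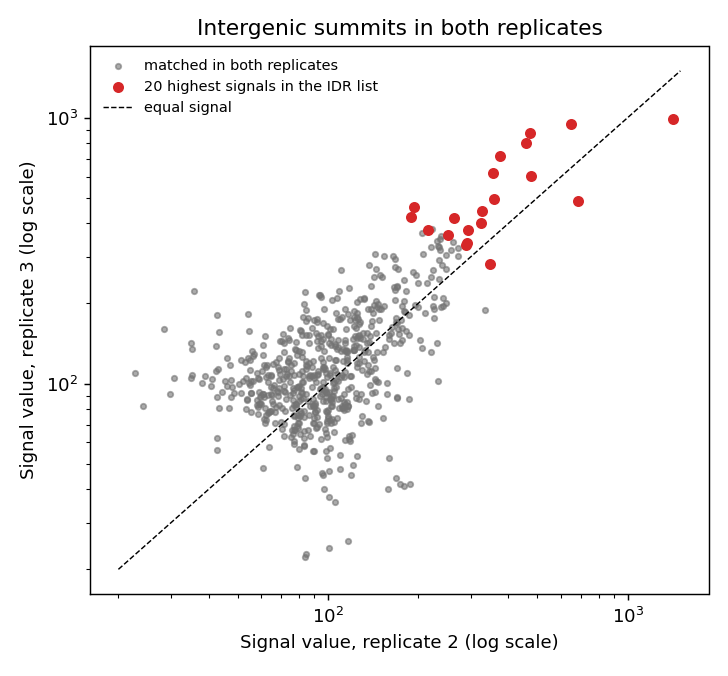
Signal value of the 626 intergenic summits matched in both libraries, replicate 2 on the horizontal and replicate 3 on the vertical axis, both logarithmic; red points are the 20 members with the highest signal in the IDR list and the dashed line marks equal signal. Most points sit near the line with a wide spread at low signal, and most of the red points lie above it.

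The strongest member lay at X:1398918-1399915 with a signal of 2406, and had 1414 in replicate 2 and 989.5 in replicate 3. It sat 2001 bp beyond the end of Rilpl and 9731 bp before the start of futsch, which encodes a microtubule-associated protein of neurons. The second, at 3L:3246163-3246901 (signal 1607, replicates 649.5 and 946.5), lay 1500 bp from the start of CG43389. The third, at 3R:12402970-12403296 (signal 1341, replicates 473.0 and 873.0), filled the short gap of 437 bp between the ends of Sol1 and Cyp9f2, a cytochrome P450 gene. These leading regions thus ranged from the middle of a gap to the junction of converging genes. The fourth, at 2R:13034992-13035623 (signal 1262, replicates 458.0 and 802.4), lay 9419 bp from the end of CG13323. The gene on its other side, 27365 bp away, was Su(z)2, a relative of the Polycomb group gene Psc. The member between Hacd1, which encodes a dehydratase of fatty acid elongation, and the rhodopsin gene Rh5 lay at 2L:12003008-12003977 (signal 1182, replicates 685.0 and 485.9). A further member between COX7AL2 and CG31668 lay at 2L:2202160-2202835 (signal 1095, replicates 376.6 and 720.3). Those beside Rilpl and Hacd1 were higher in replicate 2, the other 4 in replicate 3.

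Among the next in order, the region at 3L:11245978-11246509 (signal 1080) lay between 2 long noncoding RNA genes, and its nearest coding gene on one side was scyl, a growth inhibitor induced by stress, at 6054 bp. A member at 3L:10776348-10776730 (signal 980.6) lay 3181 bp from the end of CG43245. The start of Tl, which encodes the Toll receptor, was 1099 bp from a member with a signal of 854.2, and the neighbouring chemosensory genes CheB93a and CheB93b had one of 766.2 between them. The first 10 of the 20 strongest thus lay beside genes of unlike function. A member with a signal of 727.7 lay 218 bp beyond the end of Set2, a histone methyltransferase gene, in the gap before Neto. The others in the range from 606.7 to 674.7 lay beside Ppa, CG13898, jp (junctophilin), CG17746, Adk3 (an adenylate kinase) and Gadd45, hng3, spel1 (a mismatch repair protein) and ppk, the noncoding genes lncRNA:CR44091 and lncRNA:CR45564, and kay. The member at kay, the fly Fos and a partner in the AP-1 transcription factor, lay at 3R:29763204-29763491, 2623 bp from its start, with 189.3 in replicate 2 and 423.7 in replicate 3.

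Among the 626 members matched in both replicates, ranks differed most at 4. Members without a match in 1 replicate have no rank there and were left out. Among them were 1 beside Hr38 (signal 567.6, no match in replicate 2) and 1 beside ImpE1 (signal 153.7, no match in replicate 3). The member between lncRNA:CR44620 and lncRNA:CR44621 on X had 83.7 in replicate 2 and 22.3 in replicate 3. That near tRNA:Phe-GAA-1-6 on 3R had 84.5 and 22.9. In the gap between CG17154 and vers a member had 100.6 and 24.2, and one between hng3 and tRNA:Ile-TAT-1-1 had 117.1 and 25.6. All 4 were higher in replicate 2, and their signals in the IDR list were between 141.9 and 158.3. The last 2 lay 199 and 203 bp from a neighbouring summit.

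Intergenic summits were found less densely than summits in general, and nearer to start sites than the sequence that meets the rule. That sequence amounted to 36.5 Mb, or 27.2% of the 133.9 Mb of the 5 large arms and chromosome 4, and held 19.1 members per Mb. The whole list had 42.6 summits per Mb of the arms. With the same number of strongest summits taken from 1 library, 681 (11.9%) were intergenic in replicate 2 and 718 (12.6%) in replicate 3, a mean of 12.3% ± 0.459 (SD, n = 2). The corresponding densities were 18.7 and 19.7 per Mb. Both replicates lay on either side of the shared list within a narrow band.

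The nearest start site was a median of 2796 bp away (quartiles 1293 and 5879, range 515 to 37194), and 2824 and 2746 bp in replicates 2 and 3. The median over all bases that meet the rule was 5942 bp (quartiles 2445 and 16308). Members were most dense at 501 to 1000 bp from a start, where 123 lay at 43.5 per Mb (44.6 ± 3.00, SD, n = 2 replicates). Density was 32.2 per Mb from there to 2000 bp (147 members), 24.2 up to 5000 bp (217) and 19.95 up to 10000 bp (143). It was 9.41 between 10000 and 20000 bp (47 members) and 2.65 beyond 20000 bp (21 members; 2.58 ± 0.267 over replicates). The order of the 6 distance classes was the same in both libraries, and the step between any neighbouring classes exceeded the difference between the replicates in either of them. Signal did not follow distance, with medians between 181.8 and 211.7 in the 6 classes.

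Repeats move with distance: 20.4% of the sequence at 501 to 1000 bp was soft-masked as repetitive, and 41.5% beyond 20000 bp. Counted over unmasked sequence alone, density was 45.4 per Mb in the nearest class, 9.85 between 10000 and 20000 bp and 3.88 in the farthest, so the same order was measured there. Whether reads that map to several places were kept is not given in the sources used here. Of all members, 145 (20.8%) lay on a soft-masked base against 26.6% of the sequence that meets the rule, and 1 (0.143%) lay in an annotated transposable element against 10.8% of that sequence. Outside annotated transposable elements, 145 of 697 members (20.8%) lay on a soft-masked base against 23.3% of the sequence. Members were therefore close to absent from annotated transposons and slightly below the general share in other soft-masked sequence.

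**Figure D2:**
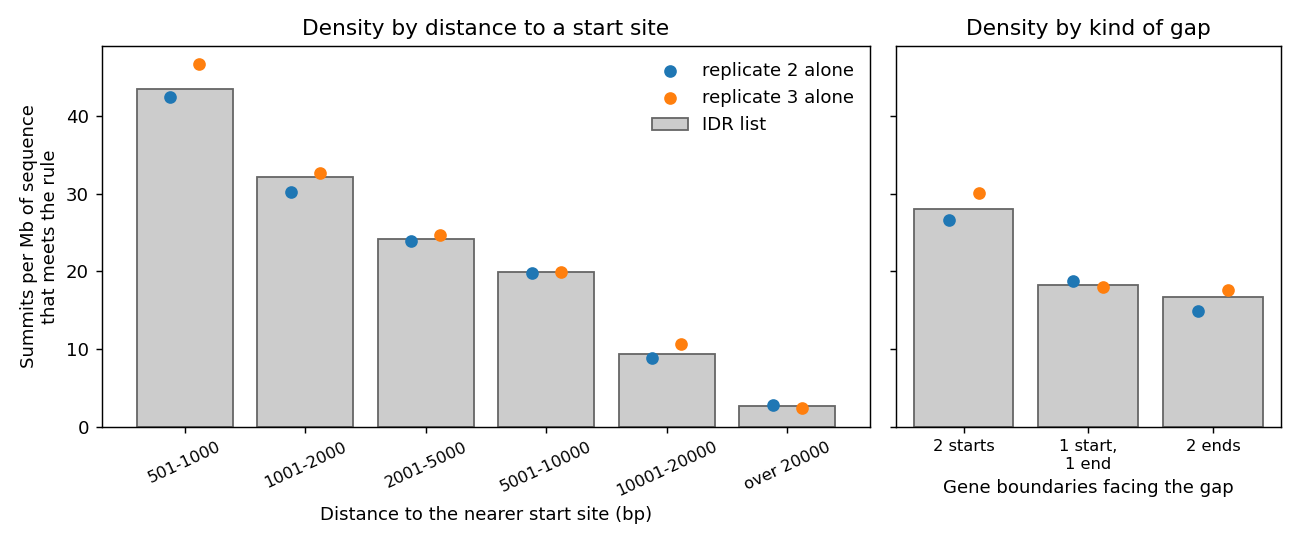
Intergenic summits per Mb of sequence that meets the rule, by distance to the nearer start site (left, bp) and by the gene boundaries that face the gap (right); bars are the IDR list and points the strongest 5703 summits of each replicate alone. Density falls from 43.5 per Mb in the nearest class to 2.65 in the farthest, and gaps between 2 starts stand highest in both replicates.

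Both flanking genes were found for every member. The nearer was a median of 1915 bp away (quartiles 893 and 4784, range 12 to 37194) and the farther 7785 bp (quartiles 3289 and 14951, range 249 to 81508). A gene body lay within 1000 bp of 200 members, whereas 161 were more than 5000 bp and 51 more than 10000 bp from any gene. For 98 members both flanking genes lay within 2000 bp, and for 278 the farther one was more than 10000 bp away. The typical member thus sat toward one side of its gap. The gap itself had a median length of 10877 bp over members, and 20377 bp over bases that meet the rule. Although every summit lay outside genes, 15 of the peak regions reached into a gene body and 44 came within 500 bp of a start.

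At the 500 bp limit, the nearest members lay 515 to 526 bp from the starts of scrib (signal 210.2), Asator (165.9), lncRNA:CR43650 (151.3), CG17896 (494.8) and daw (412.3). The summits just inside it, which count as promoter summits, lay 477 to 496 bp from E(spl)m2-BFM (420.9), Hsc70-3 (234.7), wor (142.2), lncRNA:CR42657 (497.8) and CG6602 (156.5). At the other extreme, the member farthest from any start lay 37194 bp from CG43245 in the gap that begins at NijA (signal 156.6, replicates 63.0 and 90.5). The second was in the same gap at 34571 bp (signal 321.6). The third lay 34451 bp from lncRNA:CR45115, beyond the end of vvl, which encodes a POU-domain transcription factor (signal 138.6).

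Gaps between the starts of diverging genes held 207 members (29.7%) at 28.0 per Mb, with 26.6 in replicate 2 and 30.2 in replicate 3. Gaps with 1 start and 1 end held 335 (48.0%) at 18.2 per Mb, with 18.7 and 18.0. Gaps between the ends of converging genes held 156 (22.3%) at 16.8 per Mb, with 14.9 and 17.6. Divergent gaps stood above both other kinds in each library, while the means of the other kinds differed by less than the spread between the replicates in converging gaps. The flanking boundary nearer to the member was a start for 382 (54.7%), at 22.3 per Mb, and an end for 316 (45.3%), at 16.4 per Mb. The 1.36 Mb beyond the last gene of an arm held 0 members, which allows up to 2.21 per Mb.

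Chromosome arms differed more than gap types. Arm 3L held 256 members at 28.2 per Mb of sequence that meets the rule (27.2 in replicate 2, 28.3 in replicate 3), and 20.2% of its summits were intergenic. Arm 3R had 21.9 per Mb (168 members), 2L 16.4 (110) and 2R 14.2 (106). The X had 10.5 per Mb (56 members; 11.1 and 9.98 in the replicates), and only 6.10% of its 918 summits were intergenic. Chromosome 4 had 2 members. The 3L arm was thus highest and X lowest among the 5 large arms in both libraries; over unmasked sequence the values were 29.99 on 3L and 9.28 on X. Over summits of every kind the 5 large arms ran from 39.0 per Mb on X to 47.2 on 2R, with 45.1 on 3L, a much narrower range. Without the 10 gaps that held most members, 3L had 182 members at 20.7 per Mb, below 3R as a whole.

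**Figure D3:**
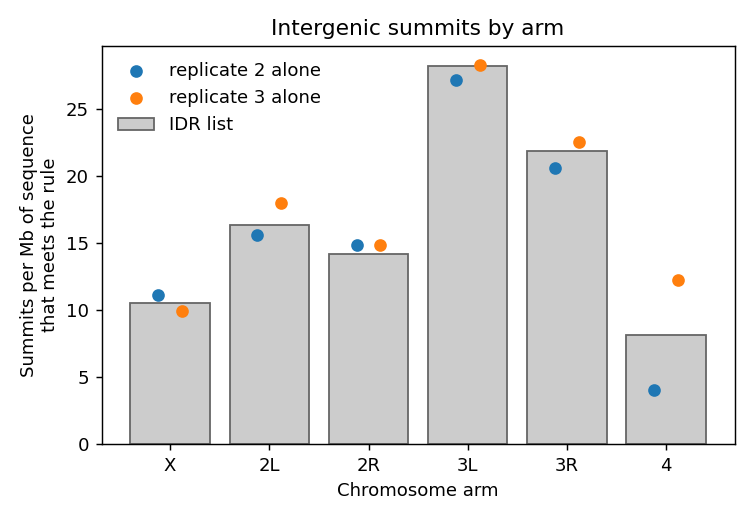
Intergenic summits per Mb of sequence that meets the rule on each chromosome arm; bars are the IDR list and points the strongest 5703 summits of each replicate alone. Arm 3L stands at 28.2 and X at 10.5, and chromosome 4, with 2 members, has the widest spread between replicates.

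Members lay in a limited number of gaps. Of 6528 gaps with sequence that meets the rule, 421 held a member. Of these, 274 held 1, and 147 held 2 or more and together 424 members. The gaps with a member ran from 437 to 82634 bp in length, and long gaps offer more sequence. How many gaps a spread by length alone would fill was not tested. The 10 richest held 81 (11.6%), and 9 of these were on 3L. Another summit of the list lay a median of 2034.5 bp away, within 1000 bp for 205 members and more than 20000 bp away for 54. Part of this closeness lies within peaks: 97 members had another summit 199 to 249 bp away and none had one nearer, and joining members up to 250 bp apart left 653.

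The richest was the gap of 75047 bp between the starts of NijA, a gene of the ninjurin adhesion family, and CG43245, with 12 members spread over 47314 bp and signals from 148.2 to 404.6. Each replicate alone had 13 summits there. Between tRNA:Ile-TAT-1-2 and CG13898, 10 members lay in 32964 bp (signals 138.6 to 663.3), with 7 in replicate 2 and 10 in replicate 3. The gap between CG17154 and vers held 10 in 26875 bp (signals 138.5 to 520.0), with 11 and 6. The libraries thus gave the same count in the first of these gaps and unequal counts in the other two. Between lncRNA:CR45036 and lncRNA:CR42755 there were 8 members in 16910 bp, with 6 and 8. The gap between Eaf6, a subunit of histone acetyltransferase complexes, and Blimp-1 held 7 in 22682 bp, with 5 and 9. It shared this count of 7 with the gaps Tollo to Best4, CG18404 to lncRNA:CR46113, lncRNA:CR45755 to lncRNA:CR45437, and Pex7 to hry.

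**Figure D4:**
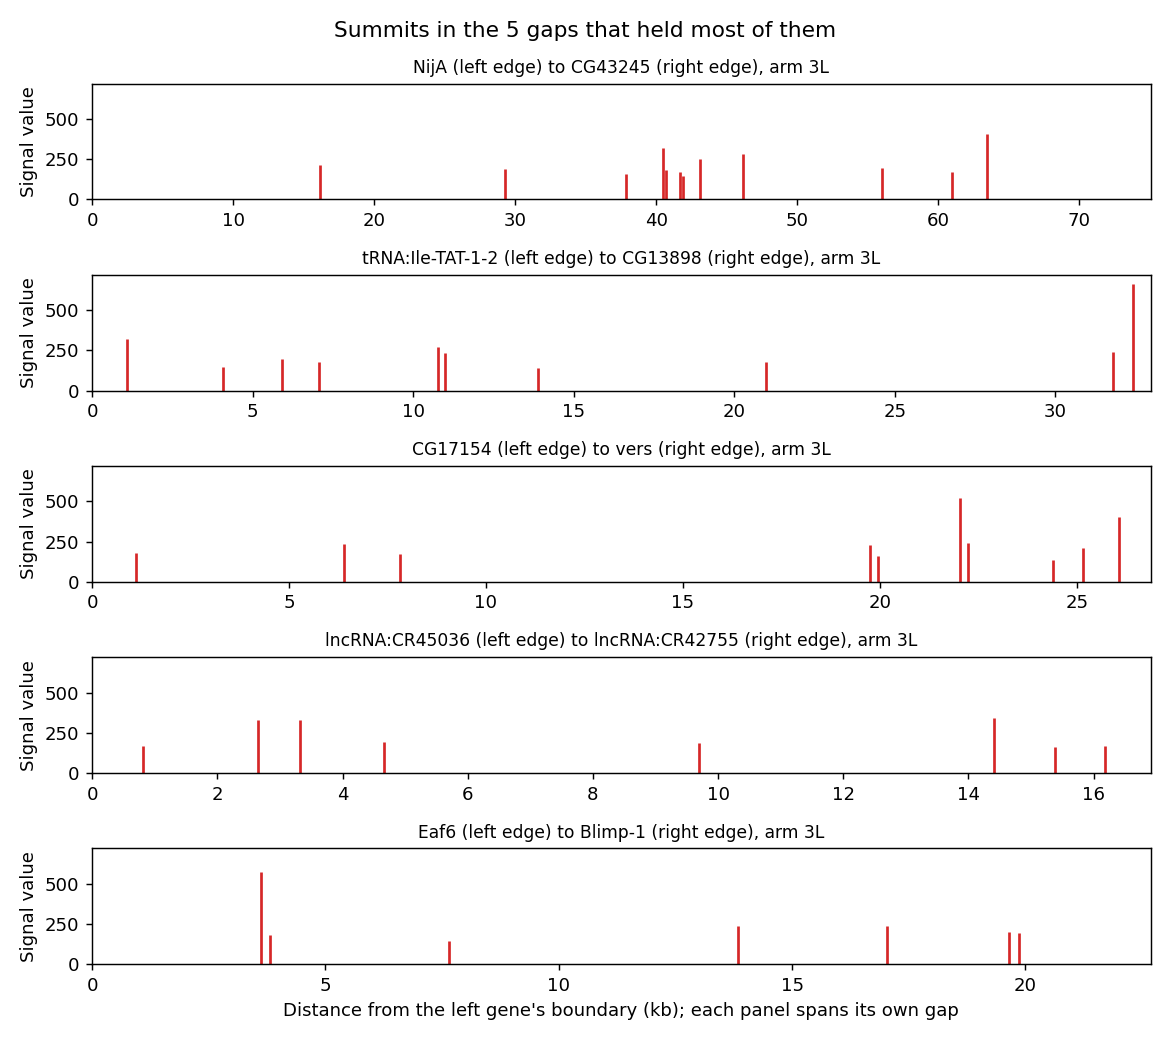
Position of each intergenic summit in the 5 gaps listed first by count, with distance from the left gene's boundary in kb on the horizontal axis and the signal value as the height of the line. The summits spread through each gap, some as close pairs, and the tallest is the 663.3 near CG13898.

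The genes on either side were mostly protein-coding. Of 1396 flanking sides, 932 (66.8%) were protein-coding genes, 432 (30.9%) other noncoding RNA genes, 29 (2.08%) tRNA genes, 2 pseudogenes and 1 an snRNA gene. Weighted by the sequence that meets the rule, the shares were 70.5% coding, 24.1% noncoding RNA, 0.836% tRNA and 4.08% pseudogene. Coding genes flanked 326 members on both sides, 280 on one side and 92 on neither. Protein-coding flanks were therefore close to the share that the sequence offered, noncoding RNA and tRNA genes above it, and pseudogenes below it. Of the 29 tRNA sides, 10 came from the gap between tRNA:Ile-TAT-1-2 and CG13898, and 4 from the nearby gap between hng3 and tRNA:Ile-TAT-1-1. The tRNA share thus rested in large part on this stretch of 3L.

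Members tended to lie beside genes whose promoters were also bound. For 373 of the 698 (53.4%; 56.8% in replicate 2 and 52.9% in replicate 3) a flanking gene had a summit within 500 bp of one of its starts, compared with 14.9% of the sequence that meets the rule. Both flanking genes had one for 69 members (9.89%), against 2.23% of that sequence. Counted by gene, 542 of 13945 protein-coding genes (3.89%) had a member in a gap beside them. Of these, 174 (32.1%) had a bound promoter, against 1335 (18.9%) of the 7079 that border sequence meeting the rule without a member, and 19.97% of all protein-coding genes. Ctps itself had 0 members within 50000 bp. In a stretch this short, a count of 0 cannot be told apart from the general density of 19.1 members per Mb of sequence that meets the rule.

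Genes of the ecdysone response, the cascade that starts metamorphosis, stood beside members more often than protein-coding genes in general. Of the 38 listed, 10 (26.3%; 9 in replicate 2 and 10 in replicate 3) had a member beside them, and the 22 members there came to 90.6 per Mb of neighbouring sequence that meets the rule, against 18.4 beside all protein-coding genes. Blimp-1, an ecdysone-induced transcriptional repressor that times prepupal development, had 7. Their signals ran from 146.8 to 570.9. The strongest, at 3L:5611642-5612095, lay 19073 bp from Blimp-1 and nearer, at 3610 bp, to the start of Eaf6 across the gap, and had 256.6 in replicate 2 and 316.6 in replicate 3. The gene hid, which triggers cell death in larval tissues, had 6 members within a stretch of 4527 bp, with signals from 139.3 to 565.0. The strongest of them lay 9567 bp from hid and 964 bp from the start of lncRNA:CR45234. The nuclear receptor genes Hr38 and Eip78C had 1 each: that of Hr38, 1650 bp from its start, had a signal of 567.6 with no match in replicate 2 and 331.0 in replicate 3, and that of Eip78C had 336.7 with 186.6 and 152.0. Others were Kr-h1, Eip93F, Eip63E, ImpE2, MsrA and ImpE1, of which Eip63E and ImpE2 share 1 member. Without Blimp-1 and hid, 8 of 36 genes and 43.9 members per Mb remained. The listed genes border a median of 849.5 bp of sequence that meets the rule, against 42 bp for all protein-coding genes. Among genes with at least 5000 bp of such sequence, 5 of 9 had a member, compared with 338 of 2069 (16.3%) protein-coding genes. By promoter, 24 of the 38 were bound.

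Transcription factors of imaginal discs and appendages had the highest share of genes, 22 of 70 (31.4%; 18 and 24 in the replicates), with 25 members. The cut homeobox gene ct had 2, the stronger with a signal of 561.5 (replicates 232.4 and 329.4), 3734 bp from its start. The Runt-domain gene lz had one of 515.9 at 2291 bp from its end, and the POU-domain gene pdm3 one of 358.0 at 5378 bp from its start. A member of 446.5 in the gap beside the homeobox gene C15 lay 7536 bp from its end and 578 bp from the start of sp3. To be beside a member therefore means to border its gap, not to be the nearer gene. These genes border long gaps, with a median of 12337 bp of sequence that meets the rule against 42 bp for all protein-coding genes, and their density was 23.6 per Mb, near the general 18.4. Among genes with at least 5000 bp of such sequence, 19 of 46 (41.3%) had a member, compared with 338 of 2069 (16.3%) protein-coding genes.

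Secreted signals and receptors of pattern formation gave 11 of 41 (26.8%; 11 in each replicate), with 18 members at 45.9 per Mb. The Wnt receptor gene fz had 2, the stronger with a signal of 514.2 (replicates 246.8 and 268.9), 1725 bp from its start. One member of 409.5 lay between Wnt6 and Wnt10, and one of 380.3 lay 11120 bp from the end of upd1, a ligand of the JAK/STAT pathway, and 1854 bp from the nearest start of another gene. The Notch ligand gene Ser had the most, 4, with signals from 155.8 to 302.7. The strongest member beside each of these genes had a match in both libraries. Of the Hox and segmentation genes, 6 of 35 (17.1%) had a member, at 21.9 per Mb, and 8 of the 14 members lay beside hry (hairy), a repressor of the HES family. Of the 8, 3 lay within the single region 3L:8667843-8668865. The strongest had a signal of 386.6, 23034 bp from the start of hry, and ems, gsb and en had 295.7, 188.8 and 168.9 at their strongest. Without hry the density was 9.98 per Mb.

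Stress and metabolism genes had a higher share than the general 3.89%, and the highest density of any list. Of the 48, 4 (8.33%; 4 and 5 in the replicates) had a member: kay, foxo, the effector of insulin signalling, Atf3 and GstD1, a glutathione transferase. Their strongest members had signals of 606.7, 365.6, 270.1 and 144.7, and the 7 members fell in 0.0502 Mb, at 139 per Mb. Among genes with at least 5000 bp of sequence that meets the rule, 3 of 3 had a member. Of the 48 genes, 27 border any such sequence, and the median was 101.5 bp per gene. The share and density of this list thus rest on few genes and little sequence.

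The remaining groups were near or below the general share. Cuticle protein genes gave 6 of 115, among them Cpr72Ea, Cpr72Eb, Cpr51A and Cpr12A. Neural genes gave 2 of 64, Syt1 and nAChRalpha7, although they border a median of 7918 bp of sequence that meets the rule, and their density was 3.84 per Mb. This list thus had long neighbouring gaps and a low count, and the reason was not tested. Chemoreceptor and odorant-binding protein genes gave 5 of 230 (Obp56h, Ir94h, Gr93a, Gr93b and Gr47b). Cytoplasmic ribosomal protein genes gave 2 of 86 (RpL13 and RpLP0), while 75 of the 86 had a bound promoter. Only 46 of the 86 border any sequence that meets the rule, and the rest could not have a member. The median was 30 bp per gene. Heat shock and chaperone genes had 0 of 31, with 0 in replicate 2 and 2 in replicate 3. They border only 0.0532 Mb of sequence that meets the rule, a median of 86 bp per gene. Their count of 0 therefore cannot be told apart from the general share of 3.89%.

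**Figure D5:**
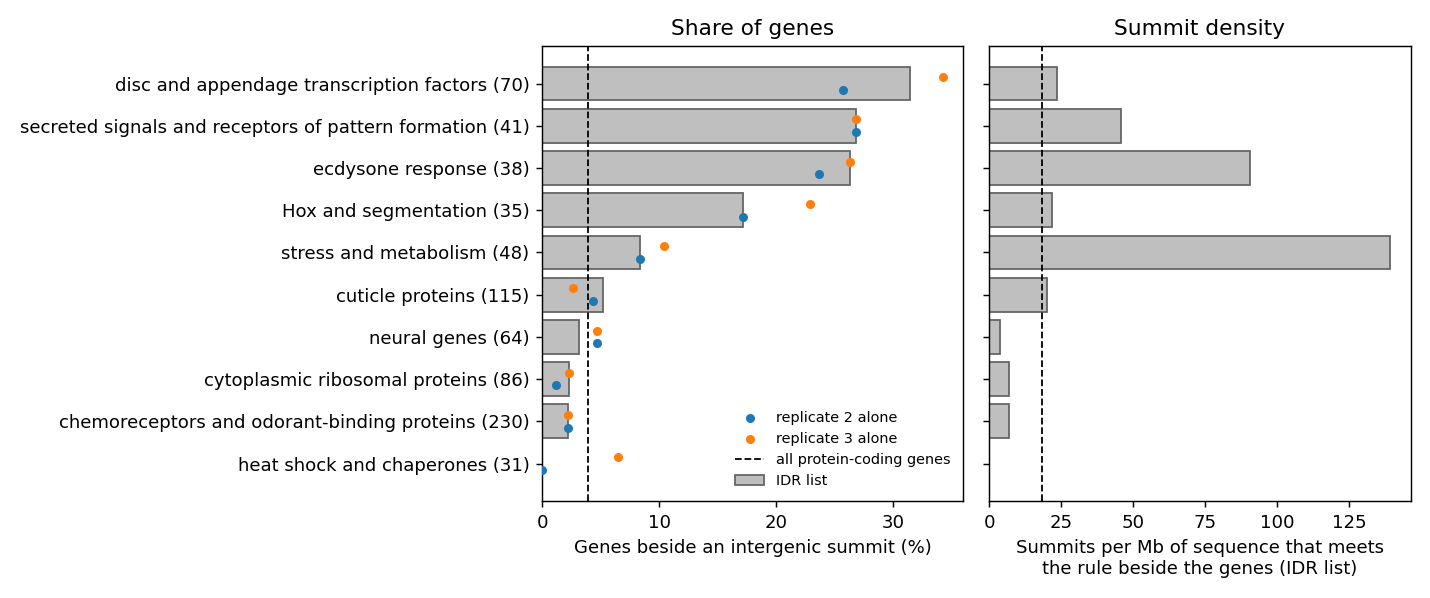
Left, percent of the genes of each list (number of genes in parentheses) that had an intergenic summit in a gap beside them, with bars for the IDR list and points for each replicate alone; right, members per Mb of neighbouring sequence that meets the rule, with dashed lines for all protein-coding genes (3.89% and 18.4 per Mb). Discs, signals and the ecdysone response stand highest on the left, and the disc list moves close to the line on the right.

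Few sequence motifs marked the summits. Motifs were sought on both strands in windows of the summit and 50 bp on either side, in windows of the same length centred 500 bp to either side, which may themselves lie near another summit, and in all 357883 windows of that length that tile the sequence meeting the rule. GAGAGAG, whose flanking bases can be seen in the windows beside dsx and croc, was present in 24 members (3.44%, 95% Wilson interval 2.32 to 5.07), in 1.00% of the windows beside them and in 1.09% of tiles. With windows 1000 bp away the share there was 1.65%. The motif was not centred on the summit: in windows of 25 bp on either side of a point, it was found in 12 members at the summit, in 17 and 18 at 100 bp to the left and right, and in 2 and 4 at 500 bp, where counts were among the lowest measured. The replicates alone had 2.64% against 1.10% beside the summits in replicate 2, and 2.51% against 1.60% in replicate 3. Promoter summits had 7.00% and gene body summits 6.02%, so the intergenic share was the lowest of the 3 classes. The 24 members had a median signal of 167.7 against 197.7 without the motif; 6 were among the 349 stronger members and 18 among the 349 weaker. By distance to a start, the share was 5.69% at 501 to 1000 bp, 1.40% between 5000 and 10000 bp and 0 of the 68 members beyond 10000 bp, which allows up to 4.41%.

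Of the other motifs in at least 20 members, CAGCTG was in 4.87% against 3.15% beside the summits and 3.45% of tiles. At 1000 bp the share was 4.30%, which lowers the ratio from 1.55 to 1.13, and in the replicates alone the ratio to windows 500 bp away was 1.45 and 1.29. Other E boxes did not share this rise. CAGGTG (1.58% against 3.37%) and CACGTG (0.430% against 1.22%), each in fewer than 20 members, were lower at the summits, and CATATG is given below. AAAAAAAA was in 8.74% against 6.81% and 5.45%. The replicates alone had 9.40% in replicate 2 and 6.55% in replicate 3, so replicate 3 was not above the 6.81%. Windows beside each replicate's own summits were not counted for this motif. CATATG (3.58% against 3.30%), TGCATA (8.31% against 7.66%) and TTTATTG (4.58% against 4.37%) differed little from windows 500 bp away; at 1000 bp the shares were 2.51%, 6.02% and 4.01%, so the order of these motifs depends on the distance chosen. Among motifs in at least 20 members, the lowest relative to the sequence beside the summits was TAATTA, the core of homeodomain sites. It was in 5.16% of members against 8.31% (tiles 7.36%). TAATTA was also lower at the summits of each replicate alone (4.70% against 8.96%, and 6.55% against 9.05%). The limit of 20 members leaves out rarer motifs that stood lower, such as ATCGAT (1.15% against 3.01%) and GTGGGAA (0.287% against 0.860%). It also leaves out rarer motifs that stood above the sequence beside the summits, such as CCGGAAG (0.573% against 0.215%). TTNCNNAA, of the C/EBP type with N for any base, was in 23.5% against 28.7%, and GCCAT, the core of Pho sites, in 14.0% against 17.0%. TATCGATA, the DNA replication-related element, was found in 0 members, which allows a share of up to 0.430%, and in 0.922% of promoter summits. Base composition was close throughout, with a median GC content of 41.1% at the summits, 40.6% beside them and 40.6% in tiles, against 45.5% at promoter summits.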

How the data were processed

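Peak lists on dm6 and dm3 were provided; only dm6 was used. Per the notes deposited with the files, relaxed lists were called for each replicate and for pooled alignments against a control alignment, and the IDR list derives from them. Which aligner and peak caller were used is not given in the sources used here. Each signal value is a score deposited with each peak, whose scale is not stated; the deposited −log10 q-value was not used, being the same for all IDR peaks. Summits came from the deposited start and summit offset. Each relaxed list ends at 30000 peaks, and depth is unknown.

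Computation used Python 3.11.15, NumPy 2.4.6 and SciPy 1.17.1; rule and motif search were tested on simulated data. Single-replicate values use the 5703 strongest summits. With 2 libraries the smallest two-sided p of 2 pairs would be 0.5. Intervals cover counting error only. Gene lists (10, with 329 of 330 symbols matched) and 31 motifs were chosen, as were the members, with earlier results of these data known. Named were the 20 strongest members, 5 richest gaps, 3 farthest members and the 4 most rank-discordant of those matched in both replicates. Also named were 5 summits on each side of the 500 bp limit and up to 4 genes per list beside its strongest members (all where 5 or fewer). For motifs, the 6 highest and 3 lowest ratios among those in at least 20 members were named. Upper limits of a count of 0 are 3 counts. Ser, ecdysone genes past the first 4, the close pairs and the motifs in fewer than 20 members were singled out after their values were seen.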

Additional observations from a re-analysis of the deposited data

How the results depend on the processing

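Start-site limits of 250 and 1000 bp gave intergenic shares of 14.3% and 10.1%, densities of 21.3 and 17.1 per Mb, median start distances of 2179.5 and 3693 bp, 31.2% and 27.1% between 2 starts, GAGAGAG in 4.18% and 2.96%, and a bound flanking promoter for 43.6% and 64.9%, a promoter there being counted at the same limit. The 2851 strongest summits gave 11.7%, 9.13 per Mb, 2633 bp, 25.8%, a median signal of 279.6, GAGAGAG in 1.80%, bound flanks for 33.6% and 297 coding genes, by construction from fewer summits. With protein-coding genes only, the values were 15.4%, 21.9 per Mb, 4463.5 bp, 32.9%, GAGAGAG in 3.19% and bound flanks for 59.1%. Counting transposable elements as genes gave 22.1 per Mb and 2510 bp. The strongest summit of each gap gave 2129 bp, a median signal of 214.2 and GAGAGAG in 3.56%. Leaving out 1 replicate gave median signals from 99.2 to 108.3, on the scale of a single library, GAGAGAG in 2.51% to 2.64% and bound flanks for 52.9% to 56.8%. Windows of 25 and 100 bp on either side of the summit gave GAGAGAG in 1.72% and 6.88%. The GAGAGAG ratio of 3.43 was 2.09 with flanks 1000 bp away, and 2.40 and 1.57 in replicates 2 and 3. For these values no cause beyond the construction of the setting was tested. Chosen after seeing the data, the RefSeq annotation kept all 698 members, and unmasked sequence, lists without their richest genes, genes with long gaps and 3L without its richest gaps are given beside the results. No paired analysis was possible because the libraries form 1 group. Depth and control libraries limit these values: neither weak binding nor binding in repeats can be called absent.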

Other observations

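The relaxed pooled list, most of which did not enter the report, held 4684 intergenic summits among its 30000 (15.6%) in 1316 gaps. Of the gaps with a member, that between NijA and CG43245 held the most of them, 63, compared with 12 in the IDR list. The gap between Aps and lncRNA:CR45248 held 38 (2 in the IDR list), and those between vvl and lncRNA:CR45115 and between lncRNA:CR45229 and CG16894 held 34 each (4 and 3). A tRNA gene flanked 27 of the 698 members (3.87%). Of these, 10 lay in the gap between tRNA:Ile-TAT-1-2 and CG13898, and 4 in that between hng3 and tRNA:Ile-TAT-1-1.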
